A study of Mus musculus with 12 samples.

Results

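The mRNAs described here encode 9 enzymes that make or use asparagine, proline, glutamate and phosphoenolpyruvate, and they were followed in cultured muscle cells exposed to the mitochondrial uncoupler BAM15. The genes are Asns, Pycr1, Aldh18a1, Prodh, Pck2, Pcx, Gpt2, Got1 and Glul, and they were found by symbol as 9 of the 15113 genes of the count table. C2C12 cells, mouse myoblasts of an established line that form multinucleated myotubes, were grown in high-glucose medium, differentiated in low horse serum and exposed for 16 h to 20 μM BAM15 in DMSO or to the DMSO vehicle alone. 6 libraries per condition were made with QuantSeq, a method that starts cDNA at the poly(A) tail, so a count comes from the 3′ terminal stretch of an mRNA and does not grow with mRNA length. Each library held between 13983725 and 18866728 reads counted on genes. All cells come from 1 line, no genotype differs between the conditions, and the records do not say whether libraries of a condition came from separate cultures, so the p-values measure the spread between these libraries.

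These enzymes sit where the nitrogen of glutamate meets the carbon of the tricarboxylic acid cycle. Glutamate donates its amino group to make alanine and aspartate, its carbon skeleton is reduced to proline, and aspartate is converted to asparagine. The mitochondrial enzymes pyruvate carboxylase and phosphoenolpyruvate carboxykinase (PEPCK-M) feed carbon into oxaloacetate and draw it out again as phosphoenolpyruvate. Several of these genes are known targets of ATF4, a transcription factor that is translated when cells are short of amino acids or when mitochondria are stressed.

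6 of the 9 genes rose after BAM15 and 0 fell. The genes that rose were Pck2 (8.55-fold), Asns (5.04-fold), Pycr1 (5.02-fold), Aldh18a1 (4.27-fold), Gpt2 (3.42-fold) and Got1 (2.16-fold). They passed the thresholds of the study's methods, an adjusted p below 0.01 (edgeR, quasi-likelihood, Benjamini-Hochberg over 12730 tested genes), a base mean (mean normalized count of the 12 libraries) above 50 and a change of more than 2-fold. Of all tested genes, 3.70% passed these thresholds as higher and 3.58% as lower. All 9 genes passed the filter on low counts. Prodh, with 3 to 10 reads in the vehicle libraries, passed it through its BAM15 libraries, which held 21 to 41. The counts and the median below include Prodh and rest on that for this gene. At the adjusted p alone, 8 of the 9 were higher and 0 lower, against 22.0% and 20.3% of all tested genes. The additional genes at this looser threshold were Prodh, which had a base mean of 16.5, and Pcx, which was 1.44-fold higher. Glul, which encodes glutamine synthetase, passed neither. Every BAM15 library lay above every vehicle library for 7 of the 9 genes, against 17.1% of tested genes, and for 0 of the 9 did every BAM15 library lie below, against 17.0%. The median log2 fold change was 2.10 over the 9 genes and 0.02 over all tested genes. In these bulk samples, fewer cells of a type and less RNA per cell cannot be told apart.

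**Figure D1:**
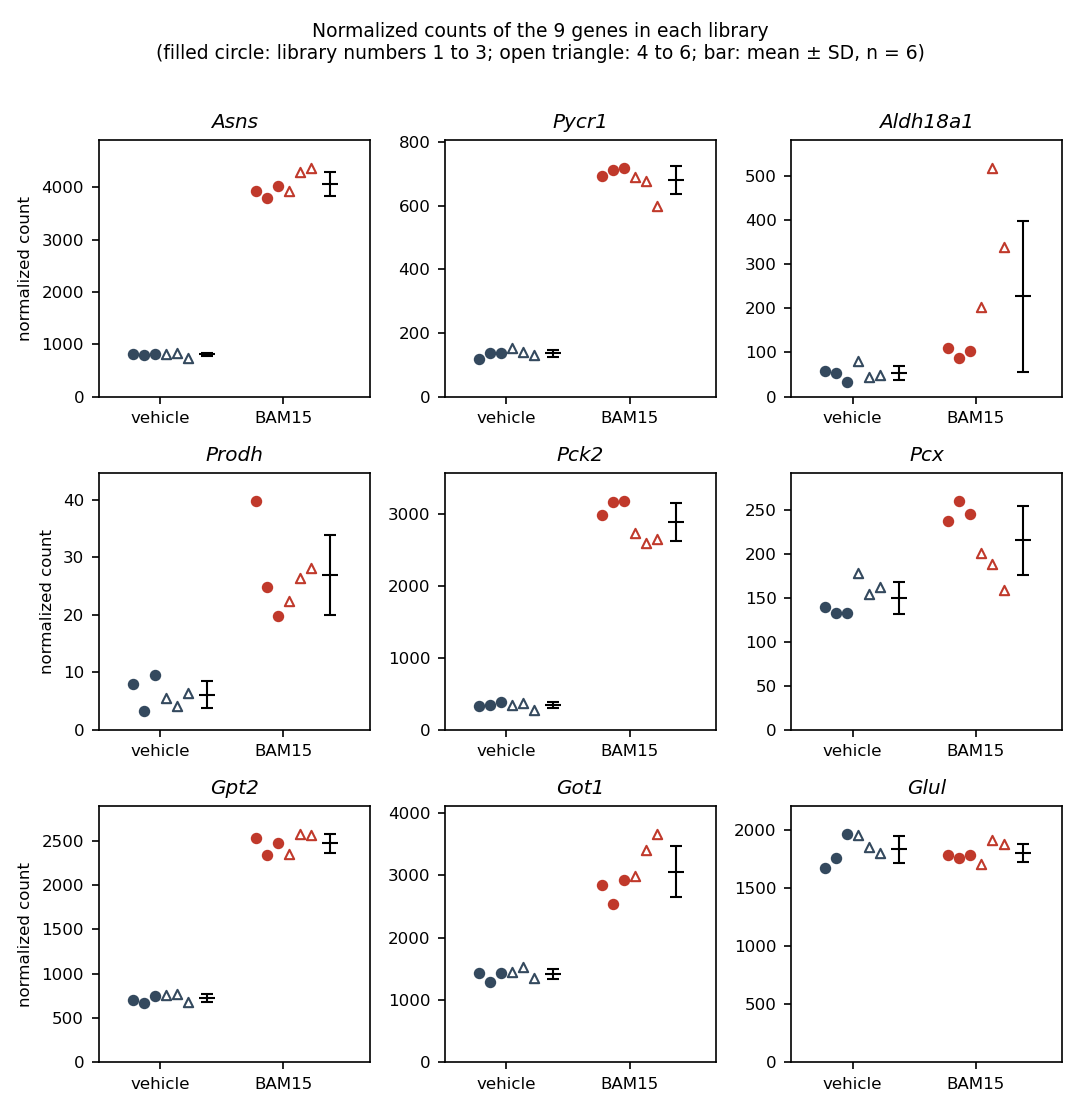
Normalized counts (y axis, from 0) of the 9 genes in each of the 12 libraries, with vehicle in dark blue and BAM15 in red, library numbers 1 to 3 as filled circles and 4 to 6 as open triangles, and the mean ± SD of 6 libraries as a bar. The BAM15 points of 7 genes lie above all vehicle points, those of Pcx and Glul overlap with vehicle, and those of Aldh18a1 spread from 86.4 to 518.

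Before the single genes, a feature of the libraries has to be stated. The BAM15 libraries numbered 4 to 6 stood apart from those numbered 1 to 3: their normalized counts did not overlap for 49.9% of the tested genes, against 14.2% between the vehicle libraries with the same numbers. Among the 9 genes, the BAM15 libraries of these numbers did not overlap for 5 (Pycr1, Aldh18a1, Pck2, Pcx and Got1), and the vehicle libraries for 1 (Pcx). No batch is named in the sources used here, and the part of this split in the results was not tested. Each gene is therefore also given as BAM15 against vehicle within library numbers 1 to 3 and within 4 to 6. Myotube markers were at similar summed levels in both conditions, 25730 to 31610 CPM (counts scaled to library size) for the 12 genes in the BAM15 libraries and 27220 to 31970 in vehicle. Of the 12, 0 passed all thresholds, and at the adjusted p alone 2 were higher and 3 lower. Log2 fold changes were 0.37 for Myog and −0.17 for Ckm and, as the extremes of the list, 0.46 for Acta1 and −0.49 for Des. The 8 proliferation genes summed to 140.7 to 184.3 CPM after BAM15 and 448.7 to 481.3 CPM in vehicle. Past all thresholds 7 of them were lower, among them Mki67 with a log2 fold change of −1.80. At the adjusted p alone all 8 were lower. Of all tested genes, 3.58% were lower past all thresholds and 20.3% at the adjusted p alone. The 5 markers of undifferentiated myoblasts summed to 227.7 to 277.3 CPM after BAM15 and 358.8 to 415.6 CPM in vehicle. Past the thresholds 1 (Myf5) was higher and 1 (Myod1) lower, and Pax7 had a log2 fold change of −0.93. At the adjusted p alone 1 of the 5 was higher and 3 were lower, against 22.0% and 20.3% of all tested genes. Of 4 macrophage markers, 2 were in the table and summed to 3.53 to 4.81 CPM after BAM15 and 0.707 to 1.71 CPM in vehicle. Of these 2, Cd68 had a log2 fold change of 2.22 (edgeR adjusted p = 8.06e-08). Csf1r, with 1 to 10 reads after BAM15 and 2 to 17 in vehicle, was not tested. Of 4 endothelial markers, 1 was in the table with at most 0.326 CPM, and 0 of 4 adipocyte markers were in the table. Ptprc, Pecam1 and Adipoq had no row in the table used here. Transcripts of the mitochondrial genome took 4.29% to 6.47% of the counts after BAM15 and 2.85% to 4.71% in vehicle. The part of these marker and mitochondrial levels in the results below was not tested.

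4 of the 9 genes hold, in the 250 bases before the RefSeq transcription start or the 50 bases after it, the letters TGATGNAA on either strand, the core of the C/EBP-ATF response element to which ATF4 binds with C/EBP partners. They are Asns, Pycr1, Pck2 and Got1. The same core is found in the promoters of 4.51% of all 27025 mouse genes with a RefSeq entry (3.97% of 32851 promoters), and in those of 1 of the 32 other genes of these pathways that had an entry. That gene was Me3, a mitochondrial malic enzyme whose log2 fold change was 0.26 (edgeR adjusted p = 0.0456, not past the threshold). Bcat1, the only other pathway gene past all thresholds as higher, has no match in its windows. Neither has Psat1, which was 1.88-fold higher without overlap (edgeR adjusted p = 3.2e-09). The 250 bases before each start are shown 5′ to 3′ on the gene's strand (RefSeq, GRCm38.p6), with the match in capitals, so that its place relative to the start can be read.
Asns (chr6:7693210-7693459, minus strand): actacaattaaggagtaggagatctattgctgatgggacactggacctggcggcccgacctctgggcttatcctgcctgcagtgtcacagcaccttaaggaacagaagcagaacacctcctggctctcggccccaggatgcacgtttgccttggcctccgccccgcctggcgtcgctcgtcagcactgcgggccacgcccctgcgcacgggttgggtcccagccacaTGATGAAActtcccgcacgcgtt
Pycr1 (chr11:120643749-120643998, minus strand): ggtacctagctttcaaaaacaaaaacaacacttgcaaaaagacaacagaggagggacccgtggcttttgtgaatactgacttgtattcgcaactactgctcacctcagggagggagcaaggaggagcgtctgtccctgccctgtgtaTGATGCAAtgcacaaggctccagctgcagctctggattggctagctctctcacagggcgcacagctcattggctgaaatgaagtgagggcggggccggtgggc
Pck2 (chr14:55540016-55540265, plus strand): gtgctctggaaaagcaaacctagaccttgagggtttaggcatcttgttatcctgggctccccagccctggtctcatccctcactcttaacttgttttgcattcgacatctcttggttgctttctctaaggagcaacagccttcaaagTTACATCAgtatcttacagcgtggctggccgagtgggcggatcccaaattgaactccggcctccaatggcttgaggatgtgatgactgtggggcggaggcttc
Got1 (chr19:43524606-43524855, minus strand): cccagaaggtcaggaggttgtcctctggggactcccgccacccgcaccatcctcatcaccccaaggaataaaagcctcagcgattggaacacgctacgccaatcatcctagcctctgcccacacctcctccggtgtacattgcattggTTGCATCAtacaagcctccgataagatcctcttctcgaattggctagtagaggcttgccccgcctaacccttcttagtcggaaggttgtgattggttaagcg
Counted from the base before the start as −1, the match begins at −23 in Asns, at −103 in Pycr1, at −103 in Pck2 and at −102 in Got1. It lies on the gene's strand in Asns and Pycr1 and on the opposite strand in Pck2 and Got1, where the printed letters are the reverse complement. The longer form TGATGNAAT, which contains the core, was found only in Pycr1 among the 9 genes and in 0.965% of all promoters. The windows of Aldh18a1, Prodh, Gpt2, Glul and both starts of Pcx do not hold these letters. Of these genes, Aldh18a1 and Gpt2 also passed all thresholds as higher, and Prodh and Pcx were higher at the adjusted p alone. A match describes the letters of the window, and binding was not measured. The 9 genes include known ATF4 targets and were chosen with earlier results known, so their count of matches is a description beside the share of all genes.

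Asns encodes asparagine synthetase, which transfers the amide nitrogen of glutamine to aspartate and releases glutamate (ENSMUSG00000029752, GRCm38 chr6:7675169-7693254, minus strand). Its normalized counts in vehicle were 733.0 at the lowest, 815.7 at the median and 837.1 at the highest. After BAM15 they were 3787, 3982 and 4372. All 6 BAM15 libraries lay far above all vehicle libraries. The mean rose from 804.7 ± 36.8 to 4057 ± 228.5 (SD, n = 6 each), a log2 fold change of 2.33 (SE 0.06, 95% interval 2.22 to 2.45, edgeR adjusted p = 1.19e-13). By p-value Asns ranked 10 of the 12730 tested genes. Its motif core lies closest to the RefSeq start among the 4 promoters shown. The gene span given above reaches into the promoter window (7693210-7693459), so this place depends on the annotation. Whether the place of a match relates to the change was not tested. The log2 fold change was 2.27 within library numbers 1 to 3 and 2.39 within 4 to 6.

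Asrgl1, an asparaginase that returns asparagine to aspartate, had 154.1 ± 33.5 normalized counts after BAM15 and 106.3 ± 12.3 in vehicle, a log2 fold change of 0.54 with overlapping groups (edgeR adjusted p = 0.00459, above 0.01 in 5 of 24 alternative settings). Its log2 fold change was 0.82 within library numbers 1 to 3 (edgeR adjusted p = 6.47e-05) and 0.18 within 4 to 6 (edgeR adjusted p = 0.367). The Asns to Asrgl1 count ratio within a library was higher after BAM15 by 1.82 on the log2 scale (exact permutation test over libraries, p = 0.00216, the smallest p that 924 splits of 6 against 6 can give). This ratio was computed with 0.5 added to each count, and so were those below. Among 8 other tested genes that make, move or use asparagine and aspartate, 0 were past all thresholds in either direction. Of all tested genes, 3.70% passed them as higher and 3.58% as lower. At the adjusted p alone 2 of the 8 were higher and 1 was lower, against 22.0% and 20.3% of all tested genes. The 8 genes had a median log2 fold change of 0.09.

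Pycr1 and Aldh18a1 make proline from glutamate. Aldh18a1, pyrroline-5-carboxylate synthase, reduces glutamate to the ring precursor, and Pycr1, a mitochondrial pyrroline-5-carboxylate reductase, completes proline. Pycr1 (ENSMUSG00000025140, GRCm38 chr11:120635712-120643769, minus strand) had 118.9, 137.0 and 151.6 normalized counts at the lowest, median and highest vehicle library. In the BAM15 libraries the corresponding values were 597.6, 692.0 and 719.2, and the groups did not overlap. Its mean rose from 135.9 ± 10.8 to 681.8 ± 43.7 (SD, n = 6 each), a log2 fold change of 2.33 (SE 0.07, 95% interval 2.17 to 2.49, edgeR adjusted p = 1.87e-12). Within library numbers 1 to 3 the log2 fold change was 2.43, and within 4 to 6 it was 2.21. Windows of 50 bases that other genes also hold made up 7.12% of those in the final 400 bases of the transcript, so a small part of its reads could be shared.

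Pycr3 encodes a cytosolic reductase of the same reaction. It had 431.6 ± 50.6 normalized counts after BAM15 and 402.6 ± 28.3 in vehicle (SD, n = 6 each), a log2 fold change of 0.10 (edgeR adjusted p = 0.322). The Pycr1 to Pycr3 ratio within a library was higher after BAM15 by 2.23 on the log2 scale, without overlap between the conditions (exact permutation test, p = 0.00216).

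Aldh18a1 (ENSMUSG00000025007, GRCm38 chr19:40550257-40588463, minus strand) varied most over the BAM15 libraries among the 9 genes. The vehicle libraries held 33.5, 52.0 and 81.2 normalized counts at the lowest, median and highest, and the BAM15 libraries 86.4, 156.3 and 518.2. The groups did not overlap, but the lowest BAM15 library was close to the highest vehicle library, and the coefficient of variation over the BAM15 libraries was 75.4%. The mean rose from 53.2 ± 16.1 to 226.9 ± 171.2 (SD, n = 6 each), a log2 fold change of 2.10 with a wide 95% interval of 1.09 to 3.10 (SE 0.46, edgeR adjusted p = 0.002). The BAM15 libraries numbered 1 to 3 averaged 100.5 ± 12.6 and those numbered 4 to 6 averaged 353.3 ± 158.6 (SD, n = 3 each). Against the vehicle libraries of the same numbers, the log2 fold change was 1.05 within numbers 1 to 3 (edgeR adjusted p = 0.000186) and 2.61 within numbers 4 to 6 (edgeR adjusted p = 0.00337). Aldh18a1 was higher within both sets of numbers, and the difference between the sets was not tested. Oat, which makes the same precursor from ornithine, had a log2 fold change of −0.04 (edgeR adjusted p = 0.765), and the Aldh18a1 to Oat ratio was higher after BAM15 by 1.87 on the log2 scale (exact permutation test, p = 0.00216).

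Prodh and Aldh4a1 run the pathway in the other direction. Prodh, proline dehydrogenase of the inner mitochondrial membrane, oxidizes proline back to the ring precursor (ENSMUSG00000003526, GRCm38 chr16:18060357-18090203, minus strand). It was sparsely counted, with 3 to 10 reads in the vehicle libraries and 21 to 41 in the BAM15 libraries. Normalized counts were 3.19, 5.87 and 9.56 at the lowest, median and highest vehicle library and 19.7, 25.6 and 39.8 after BAM15, so the groups did not overlap. The log2 fold change was 2.10 (SE 0.27, 95% interval 1.53 to 2.67, edgeR adjusted p = 8.93e-06), with 1.98 within library numbers 1 to 3 and 2.23 within 4 to 6. Only its base mean of 16.5 kept it out of the genes past all thresholds. Aldh4a1, which oxidizes the precursor to glutamate, had 168.4 ± 20.3 normalized counts after BAM15 and 276.0 ± 17.8 in vehicle, a log2 fold change of −0.71 without overlap (edgeR adjusted p = 6.96e-06), which is under a 2-fold change.

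Ratios of synthetic to catabolic mRNAs differed by pair. The Pycr1 to Aldh4a1 ratio within a library was higher after BAM15 by 3.04 on the log2 scale, the largest of the 10 ratios tested (exact permutation test, p = 0.00216). The Pycr1 to Prodh ratio had a difference of 0.22 with overlapping groups (exact permutation test, p = 0.455), and the Aldh18a1 to Prodh ratio one of −0.29 (exact permutation test, p = 0.6). With 3 to 10 Prodh reads per vehicle library, the SD of the Pycr1 to Prodh ratio over the vehicle libraries was 0.59 on the log2 scale. With 5 in place of 0.5 added to each count, its difference was 0.75 and past the threshold (exact permutation test, adjusted p = 0.00812). That of Aldh18a1 to Prodh was then 0.20 (exact permutation test, adjusted p = 0.677). With 0.5 added, the Aldh18a1 to Prodh difference was −0.94 within library numbers 1 to 3 and 0.36 within 4 to 6. Aldh18a1 relative to Pycr1 had a difference of −0.51 (exact permutation test, p = 0.305), and its BAM15 libraries spread from −3.03 to −0.39 on the log2 scale. This value pools opposite signs, −1.35 within library numbers 1 to 3 and 0.33 within 4 to 6. The difference between these sets was not tested. Of 5 other tested genes of proline and ornithine metabolism, 0 were past all thresholds as higher or lower, against 3.70% and 3.58% of all tested genes. At the adjusted p alone 0 of the 5 were higher and 1 was lower, against 22.0% and 20.3% of all tested genes. The 5 genes had a median log2 fold change of −0.04.

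Pck2 had the largest change of the 9 genes. It encodes PEPCK-M, which turns mitochondrial oxaloacetate into phosphoenolpyruvate (ENSMUSG00000040618, GRCm38 chr14:55540266-55551242, plus strand). The vehicle libraries held 271.2, 340.1 and 376.5 normalized counts at the lowest, median and highest. The BAM15 libraries held 2599, 2866 and 3185, far above the vehicle range. The mean rose from 338.2 ± 38.7 to 2889 ± 259.4 (SD, n = 6 each), a log2 fold change of 3.10 (SE 0.09, 95% interval 2.91 to 3.28, edgeR adjusted p = 6.35e-13), which ranked 88 among 12730 genes by size of increase. Within library numbers 1 to 3 the log2 fold change was 3.16 and within 4 to 6 it was 3.01. Windows of 50 bases that also occur among 198 other genes made up 21.4% of those in the final 400 bases of Pck2, so how the counting treated reads with several matches could move its level. The cytosolic isozyme gene Pck1 had no row in the table used here, and the planned ratio of the isozymes was not computed.

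Pcx encodes pyruvate carboxylase, the mitochondrial enzyme that makes oxaloacetate from pyruvate (ENSMUSG00000024892, GRCm38 chr19:4510472-4621752, plus strand). Its normalized counts were 132.8, 146.9 and 178.6 at the lowest, median and highest vehicle library and 158.7, 219.3 and 260.4 after BAM15, so the groups overlapped. The log2 fold change of 0.52 (SE 0.12, 95% interval 0.26 to 0.79, edgeR adjusted p = 0.00235) was past the adjusted p and under a 2-fold change. It was past the adjusted p within library numbers 1 to 3 and not within 4 to 6, and the difference between these sets was not tested. Within numbers 1 to 3 the BAM15 mean was 247.9 ± 11.5 against 135.0 ± 3.59 in vehicle (SD, n = 3 each), a log2 fold change of 0.87 (edgeR adjusted p = 2.51e-06). Within numbers 4 to 6 the means were 182.4 ± 21.5 and 165.0 ± 12.3 (SD, n = 3 each), with a log2 fold change of 0.14 (edgeR adjusted p = 0.437). The Pck2 to Pcx ratio was higher after BAM15 by 2.59 on the log2 scale (exact permutation test, p = 0.00216), by 2.29 within numbers 1 to 3 and by 2.89 within 4 to 6. Around these enzymes, 0 of 12 other tested genes of pyruvate, malate and phosphoenolpyruvate passed the thresholds as higher and 1 as lower, against 3.70% and 3.58% of all tested genes. At the adjusted p alone 0 were higher and 4 lower, against 22.0% and 20.3%, and the median log2 fold change was −0.27. The gene past all thresholds was Slc25a10, the mitochondrial dicarboxylate carrier that exchanges malate and succinate for phosphate. It fell from 257.7 ± 26.7 to 104.6 ± 13.8 normalized counts (log2 fold change −1.30, SE 0.10, edgeR adjusted p = 5.71e-08).

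**Figure D2:**
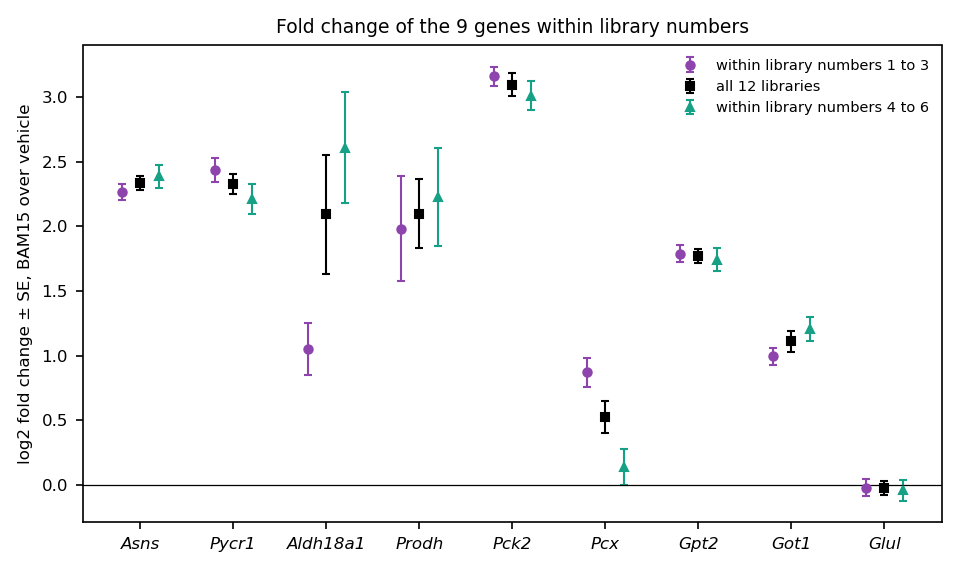
Log2 fold change of BAM15 over vehicle ± SE (y axis) for each of the 9 genes, fitted within library numbers 1 to 3 (purple circles), with all 12 libraries (black squares) and within numbers 4 to 6 (green triangles). The values of Asns, Pycr1, Prodh, Pck2, Gpt2, Got1 and Glul lie close together, whereas Aldh18a1 goes from 1.05 to 2.61 and Pcx from 0.87 to 0.14.

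Gpt2 and Got1 encode transaminases that move the amino group of glutamate. Gpt2, the mitochondrial alanine aminotransferase, makes alanine from pyruvate and releases 2-oxoglutarate (ENSMUSG00000031700, GRCm38 chr8:85492576-85527560, plus strand). Its normalized counts were 666.9, 725.5 and 775.3 at the lowest, median and highest vehicle library and 2339, 2501 and 2580 after BAM15. The BAM15 libraries lay in a narrow band well above vehicle. The mean rose from 723.6 ± 44.7 to 2471 ± 106.1 (SD, n = 6 each), a log2 fold change of 1.77 (SE 0.06, 95% interval 1.65 to 1.89, edgeR adjusted p = 1.59e-12), with 1.79 and 1.74 within library numbers 1 to 3 and 4 to 6. Gpt, the cytosolic isozyme, had 175.3 ± 17.7 normalized counts after BAM15 and 228.7 ± 22.1 in vehicle, a log2 fold change of −0.38 without overlap (edgeR adjusted p = 0.0022, above 0.01 in 1 of 24 alternative settings). The share of Gpt2 in the counts of both genes was 93.4% ± 0.632 after BAM15 and 76.0% ± 1.29 in vehicle (SD, n = 6 each), and the Gpt2 to Gpt ratio was higher after BAM15 by 2.16 on the log2 scale (exact permutation test, p = 0.00216).

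Got1 is the cytosolic aspartate aminotransferase of the malate-aspartate shuttle (ENSMUSG00000025190, GRCm38 chr19:43499752-43524605, minus strand). Its normalized counts were 1292, 1433 and 1530 at the lowest, median and highest vehicle library and 2538, 2960 and 3673 after BAM15, without overlap. The mean rose from 1417 ± 82.0 to 3063 ± 408.8 (SD, n = 6 each), a log2 fold change of 1.11 (SE 0.08, 95% interval 0.94 to 1.29, edgeR adjusted p = 2.26e-08). Got1 lay near the 2-fold limit. Within numbers 1 to 3 the log2 fold change was 0.99 (edgeR adjusted p = 2.88e-10), just under a 2-fold change, and within 4 to 6 it was 1.20. Got2, the mitochondrial isozyme, had a log2 fold change of 0.05 (edgeR adjusted p = 0.67). The share of Got1 in the counts of both genes was 52.9% ± 6.23 after BAM15 and 35.0% ± 1.96 in vehicle (SD, n = 6 each), and the Got1 to Got2 ratio was higher after BAM15 by 1.06 on the log2 scale (exact permutation test, p = 0.00216).

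**Figure D3:**
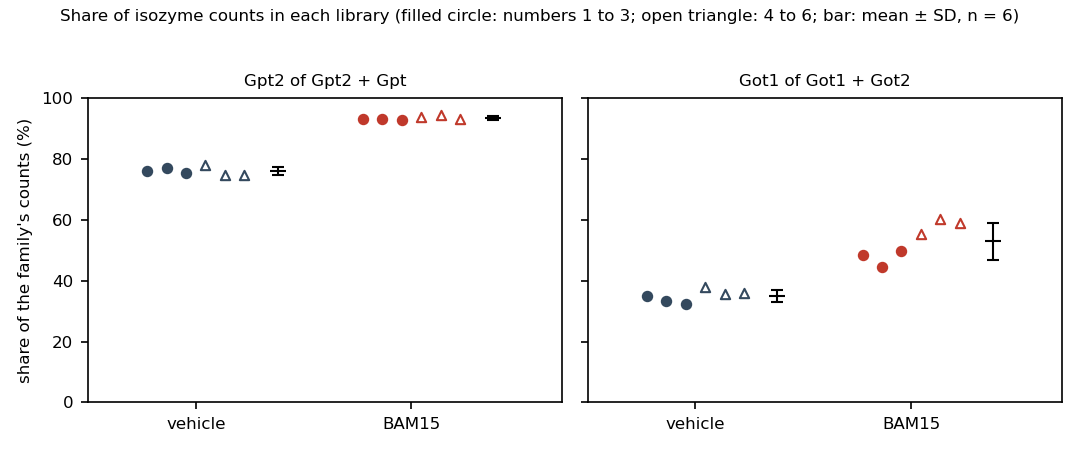
Share of the counts of an enzyme pair that fell on Gpt2 (left) and on Got1 (right) in each library (y axis, percent from 0 to 100), with vehicle in dark blue and BAM15 in red, library numbers 1 to 3 as filled circles and 4 to 6 as open triangles, and the mean ± SD of 6 libraries as a bar. The shares of both genes are higher in each BAM15 library than in any vehicle library, and for Got1 the BAM15 libraries numbered 4 to 6 lie above those numbered 1 to 3.

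Glul encodes glutamine synthetase, which adds ammonia to glutamate and supplies the glutamine that asparagine synthetase uses (ENSMUSG00000026473, GRCm38 chr1:153899944-153909723, plus strand). The vehicle libraries held 1672, 1831 and 1973 normalized counts at the lowest, median and highest, and the BAM15 libraries 1709, 1789 and 1918. The BAM15 range lay inside the vehicle range. The means were 1807 ± 77.8 after BAM15 and 1839 ± 117.4 in vehicle (SD, n = 6 each), a log2 fold change of −0.02 with a 95% interval of −0.14 to 0.09 (edgeR adjusted p = 0.726). A change as large as that of any of the other 8 genes lay outside this interval. Within library numbers 1 to 3 the log2 fold change of Glul was −0.02, and within 4 to 6 it was −0.04.

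In all, 10 within-library ratios were tested. The 7 ratios with p = 0.00216 by exact permutation had a Benjamini-Hochberg adjusted value of 0.00309 over the 10, in each of them the conditions did not overlap, and all were chosen with earlier results of these data known.

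Of 50 other genes of the same pathways, 40 were in the table and 39 were tested. Past all thresholds, 1 was higher and 1 was lower, and at the adjusted p alone 8 were higher and 7 lower. Pooled over the lists, these shares are near those of all tested genes (3.70% and 3.58% past all thresholds, 22.0% and 20.3% at the adjusted p alone). The median log2 fold change of the 39 genes was 0.05, next to 0.02 over all tested genes. Single lists differed at the adjusted p alone. Of 14 genes of glutamate and glutamine, 6 were higher and 1 was lower. Of 12 genes of pyruvate, malate and phosphoenolpyruvate, 0 were higher and 4 lower. The difference between the lists was not tested. The gene past all thresholds as higher was Bcat1, the cytosolic branched-chain aminotransferase, which transfers amino groups of leucine, isoleucine and valine to make glutamate. It rose from 170.4 ± 25.7 to 1227 ± 55.9 normalized counts (SD, n = 6 each), a log2 fold change of 2.85 (SE 0.09, edgeR adjusted p = 1.65e-12), and its share of the counts of Bcat1 and Bcat2 was 74.5% ± 1.05 after BAM15 against 33.9% ± 3.39 in vehicle. It was 1 of 14 tested genes of glutamate and glutamine metabolism, whose median log2 fold change was 0.35. The other genes past the adjusted p alone are named here after their values were seen. They were Asrgl1, Ass1, Bcat2, Gfpt1, Psat1, Kyat1 and Kyat3 on the higher side and Aspa, Aldh4a1, Gpt, Mdh1, Pkm and Slc25a1 on the lower side. Psat1, the phosphoserine aminotransferase that takes its amino group from glutamate, was nearest to the 2-fold limit with 4034 ± 236 normalized counts after BAM15 and 2147 ± 120.4 in vehicle.

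**Figure D4:**
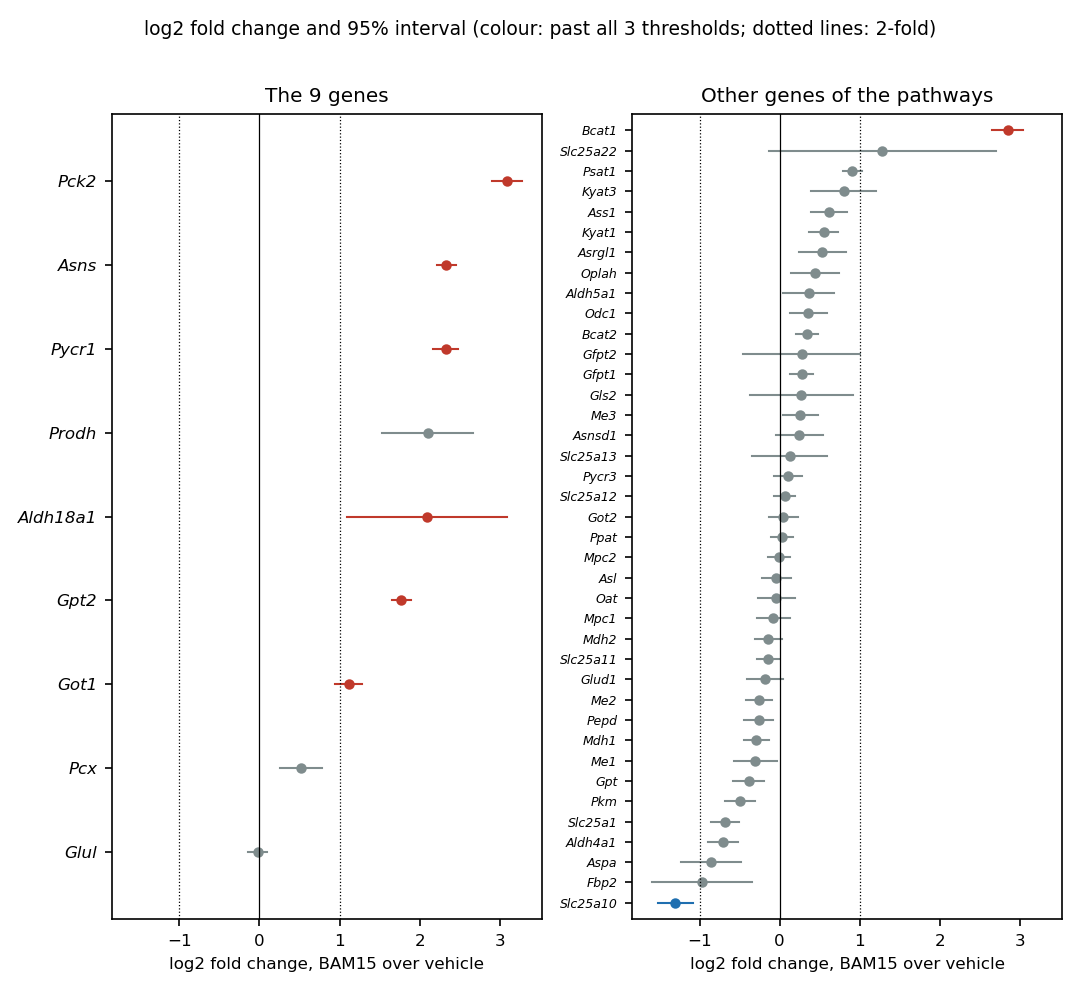
Log2 fold change of BAM15 over vehicle with its 95% interval (x axis) for the 9 genes (left) and the 39 other tested genes of the pathways (right), with red and blue for genes past all 3 thresholds as higher and lower, and dotted lines at a 2-fold change. 6 of the 9 genes lie past the right dotted line in red, and the other pathway genes centre near 0 with Bcat1 and Slc25a10 past the thresholds.

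The genes with the nearest profile to each of the 9 were looked up among 10470 genes with a base mean above 50, and those of Asns, Pycr1 and Pck2 are given here. Nearness was measured by the root mean square difference over the 12 libraries of log2 CPM relative to the vehicle mean. Nearest to Asns were Slc3a2 (0.092), Lpl (0.0932) and Ifrd1 (0.0965). Nearest to Pycr1 were Rassf5 (0.121), Gm26917 (0.121) and Per1 (0.13). Nearest to Pck2 was Chchd10 (0.0793), followed by Angptl6 (0.135) and Snhg12 (0.153). The measure takes in both the size of the increase and the spread over libraries, and it is a description without a test.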

How the data were processed

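RNA of C2C12 myotubes exposed to 20 μM BAM15 or vehicle for 16 h was sequenced from 6 libraries per condition. The deposited counts, which the authors obtained with BlueBee software from QuantSeq reads, are unnormalized and whole for each Ensembl gene. The submitters' notes name GRCm38 and DESeq2 1.22.2, and the aligner, annotation and strand setting are not given in the sources used here. The authors also deposited a normalized signal table, in which each library's counts were found divided by a single size factor (0.836 to 1.07) and which served for symbols. 11 columns of these tables belong to no sample of the series and were not used. For 2293 identifiers without a symbol, 2260 symbols came from GENCODE M21, as did gene positions, and promoter sequences came from RefSeq.

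Counts were analysed in R 4.3.3 with edgeR 4.0.16: filterByExpr (2383 genes removed), TMM factors (0.932 to 1.04) and a robust quasi-likelihood test with the condition as only term. The standard error is the log2 fold change divided by the square root of F. Thresholds follow the study's methods. Ratios of counts within a library were compared by two-sided exact permutation of libraries. No library was a copy of another, since chi-square per gene was 4.98 or more for every pair within a condition. Tests were checked on simulated data. Named genes are the 9 enzymes, other pathway genes past the thresholds, partner genes of the ratios, defining markers and the 3 nearest profiles of Asns, Pycr1 and Pck2. The 9 enzymes, the gene lists and the ratios were chosen with earlier results of these data known. Alternatives used DESeq2 1.42.0, limma 3.58.1 (voom), other scalings, filters, thresholds and subsets of libraries. Figures were drawn with matplotlib 3.10.9. Some planned results are not reported here.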

Additional observations from a re-analysis of the deposited data

Results flagged for a closer look

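In 2 of the 38 sets of 6 values examined, 1 library lay apart from the rest by Dixon's criterion at the 95% level, which chance meets in about 1 set of 20. Asns in vehicle replicate 6 was 733.0 normalized counts, below the next library by 0.683 of the group's range. Pycr1 in BAM15 replicate 6 was 597.6 normalized counts, below the next by 0.667 of the range. Neither of these values overlapped the other condition.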

How the results depend on the processing

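Under 27 alternatives, 0 of the 9 genes were past the thresholds as lower. As higher, 6 were, except for 5 within library numbers 1 to 3, 4 at a log2 fold change above 2 and 8 at the adjusted p alone. Fitted log2 fold changes ranged from 2.27 to 2.39 for Asns, 2.21 to 2.43 for Pycr1, 3.01 to 3.16 for Pck2, 1.71 to 1.79 for Gpt2 and 1.95 to 2.26 for Prodh. Aldh18a1 ranged from 1.05 to 2.61 (adjusted p 2.73e-05 to 0.00693, edgeR, DESeq2 and limma), Pcx from 0.14 to 0.87 (0.437 at most, within library numbers 4 to 6), Got1 from 0.99 to 1.20 and Glul from −0.08 to −0.01. Of the other pathway genes, 8 were higher and 7 lower at the adjusted p alone, 2 were lower within numbers 4 to 6, and 0 were lower at a log2 fold change above 2, since Slc25a10 is under it. With a pseudocount of 5 in place of 0.5, the Pycr1 to Prodh ratio differed by 0.75 (adjusted exact permutation p = 0.00812). The larger pseudocount is close to the Prodh counts of vehicle. The Asns to Asrgl1 ratio differed by 1.43 within numbers 1 to 3 and 2.21 within 4 to 6, and the Pck2 to Pcx ratio by 2.29 and 2.89. The differences of Aldh18a1 to Pycr1 and of Aldh18a1 to Prodh changed sign between these sets of numbers. The 9-base motif left 1 of 4 genes, and a longer promoter window was not run.

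Same-numbered libraries did not deviate together throughout, with correlations of −0.08 to 0.31 and 4 of 6 above 0.1, so the numbers were not taken as pairs. The deviations did follow the sets of numbers: BAM15 libraries 1 to 3 each correlated best with vehicle library 3, and BAM15 libraries 4 to 6 with vehicle library 6. Whether the sets mark a block shared by both conditions was not tested. With the library number as a replicate block, 6 of the 9 genes were higher and 0 lower, and no call of the 9 genes or the 10 ratios was lost. The 7 ratios past the threshold had an adjusted p of 0.0446 by sign-flip permutation. Each had the smallest p that sign flips over 6 library numbers can give, so the value says only that all differences had the same sign.

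Depth limits Prodh, with 3 to 10 reads in vehicle. Without the strand setting and the handling of reads with several matches, the level of Pck2 is uncertain by the share of its windows found elsewhere.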
